A study of Mus musculus with 24 samples.

Results

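Cell cycle and DNA replication genes were examined in differentiated cultures of mouse muscle cells, as a measure of the proliferation that remains once myoblasts have become myotubes. A list of 37 genes was used, from G1 cyclins and kinases to mitotic motors, and a gene was measured where a transcript cluster (the set of probes assigned to a locus) carried its symbol and no other. By this rule 35 of the 37 genes were measured, among 22180 genes tested in all. Ccne2 shared its cluster with other symbols and Ccnb1 had no named cluster, so neither was analysed here. The array's other clusters for Mcm7, Tyms and Top2a carry several symbols and were not used.

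Primary cells had been isolated from quadriceps muscle of ICR mice, and their total RNA was measured on 24 arrays in 4 groups of 6. Control cells came from offspring of dams fed freely, and undernourished cells from offspring of dams held to 50% of that amount from gestational day 12.5 until birth; all litters were equalized to 8. All cells were grown on Matrigel in 5.5 mM glucose with 20% serum and basic fibroblast growth factor until about 90% confluent. The standard groups were then differentiated in 5.5 mM glucose with 2% serum, and the limited groups were held overnight in 1% serum with 0.5 mM glucose and additions of glutamine (1 mM) and carnitine (0.5 mM). The limited medium thus differs in several substrates and in serum at the same time, and their contributions cannot be told apart. The age of the offspring, the days of differentiation, whether animals were pooled and what a culture number stands for are not stated in the labels. A culture is named below by the number that its standard and its limited array carry in the labels, and p-values reflect only how such samples scatter, some of which may be technical.

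To divide, a cell passes G1 with cyclin D bound to Cdk4 or Cdk6, which phosphorylates the retinoblastoma protein and so frees E2F factors to switch on replication genes. Origins are licensed by Cdc6 and Cdt1, which load the Mcm helicase, and mitosis then needs cyclin A, cyclin B, Cdk1 and the Aurora and Polo kinases. Myoblasts leave this cycle for good when they fuse into myotubes, a step in which the CDK inhibitor p21 (Cdkn1a) and the retinoblastoma protein take part, while cells that did not fuse can go on dividing.

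The cultures carried high signals of differentiation on every array. Myog, the myogenic factor of differentiating cells, ranged from 11.87 to 12.65 in log2 signal, and Cdkn1a from 12.82 to 13.35. Over the 15 measured myotube markers the mean log2 signal per array ranged from 10.90 to 11.42 in control standard and from 10.92 to 11.38 in undernourished standard arrays. Over 10 satellite cell and myoblast markers it ranged from 9.02 to 9.35 and from 8.90 to 9.52. The group ranges overlapped for both lists. In bulk RNA of such cultures, fewer cells of a type and less RNA per cell cannot be told apart.

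Cdk6, the kinase partner of D cyclins in G1, was lower in limited medium in cells of both maternal diets, and it was the only one of the 35 genes past the threshold in any comparison of medium in the fit without a block. In control cells its log2 signal ran from 7.43 to 8.07 in standard medium (median 7.95) and from 6.53 to 7.41 in limited medium (median 7.05). The highest limited array thus lay just below the lowest standard array, and the groups did not overlap, which held for 0.613% of all genes in this direction. In undernourished cells Cdk6 ran from 7.45 to 8.63 in standard medium (median 7.92) and from 6.90 to 7.53 in limited medium (median 7.15). Here the groups overlapped by a little (0.618% of all genes did not overlap in this direction), because culture 20 kept 7.53 in limited medium while culture 8 had 7.45 in standard medium. Every one of the 12 cultures had a lower Cdk6 value in limited than in standard medium.

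Over both diets the fall of Cdk6 was 0.80 ± 0.12 on the log2 scale (SE), a 1.74-fold difference (limma, adjusted p = 0.000294). It was the 1 gene of 35 called, where 6.84% of all genes were called, 3.28% as lower. In control cells alone Cdk6 fell by 0.81 ± 0.17 (adjusted p = 0.0372, 0.343% of all genes called), and in undernourished cells alone by 0.79 ± 0.17 (adjusted p = 0.0189, 1.46% called). The difference between these changes was 0.02 ± 0.24 and was not called. The call in control cells was lost when culture 5, 16, 15, 11, 10 or 12 was left out, with adjusted p = 0.125, 0.0584, 0.123, 0.0747, 0.156 and 0.0533. The call in undernourished cells was lost without culture 9, 4, 1 or 12, with adjusted p = 0.0553, 0.0856, 0.0716 and 0.0607.

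**Figure D1:**
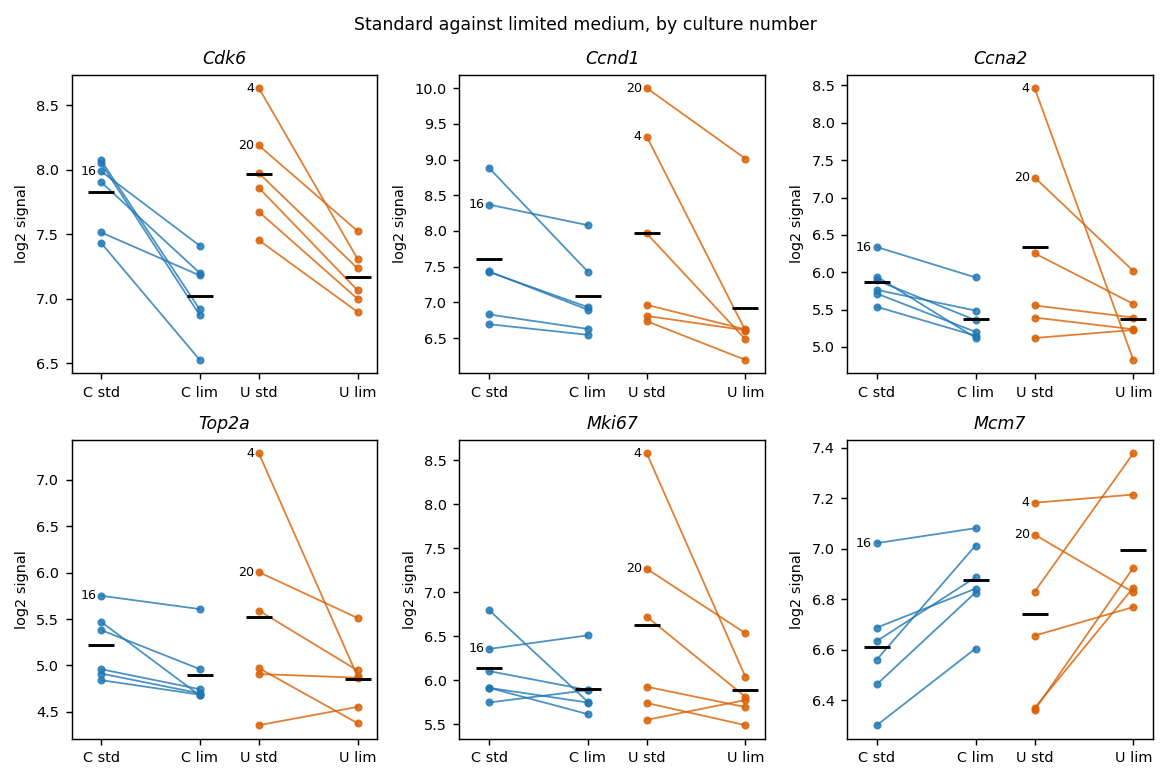
Log2 signal (vertical axis) of Cdk6, Ccnd1, Ccna2, Top2a, Mki67 and Mcm7 in control (C) and undernourished (U) cells in standard (std) and limited (lim) medium; each thin line joins the standard and limited array of a culture, and black bars are means of 6 arrays. Cdk6 is lower in limited medium in all 12 cultures, while the steepest lines of Ccna2, Top2a and Mki67 belong to undernourished culture 4.

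Cyclin D1 (Ccnd1), the G1 cyclin that activates Cdk4 and Cdk6, was also lower in limited medium in 12 of 12 cultures, which was seen for 1.24% of all genes. Its log2 signal in control cells ran from 6.69 to 8.88 in standard medium (median 7.43) and from 6.55 to 8.08 in limited medium (median 6.92). In undernourished cells it ran from 6.74 to 10.00 (median 7.47) and from 6.20 to 9.01 (median 6.61). The groups overlapped widely in both diets. In the fit without a block the difference over both diets, -0.78 ± 0.37, did not pass the threshold (adjusted p = 0.236). With the culture number as a block it passed, at -0.78 ± 0.17 (limma, adjusted p = 0.00686), where 11.7% of all genes did. Cdk4, the other kinase that D cyclins activate, had means of 9.89 ± 0.19, 9.89 ± 0.17, 9.96 ± 0.41 and 9.80 ± 0.16 (SD, n = 6) in control standard, control limited, undernourished standard and undernourished limited cells. Its difference of medium was -0.08 ± 0.10 (adjusted p = 0.725). The remaining G1 genes did not pass either: the differences were -0.06 ± 0.10 for Ccne1 (cyclin E1), 0.11 ± 0.15 for Cdk2, its kinase, and -0.01 ± 0.07 for the transcription factor E2f1.

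None of the 8 licensing genes passed the threshold for medium in the fit without a block. Mcm7, a subunit of the Mcm helicase, was higher in limited medium by 0.26 ± 0.10 (adjusted p = 0.130), and Cdt1, the licensing factor that loads it, by 0.18 ± 0.06 (adjusted p = 0.0929). Both were higher in at least 11 of 12 cultures, as were 4.43% of all genes. With the culture number as a block Mcm7 passed (limma, adjusted p = 0.0258) and Cdt1 did not (adjusted p = 0.0541), where 11.7% of all genes passed. The 5 other measured Mcm subunits had values below 0, from -0.24 ± 0.10 for Mcm4 to -0.09 ± 0.11 for Mcm3. Mcm2 ran from 6.13 to 7.03 in control standard arrays (median 6.81), from 6.45 to 7.01 in control limited (median 6.77), from 6.84 to 7.47 in undernourished standard (median 6.99) and from 6.42 to 7.13 in undernourished limited (median 6.69). These 4 ranges overlapped, and its difference of medium was -0.16 ± 0.10 (adjusted p = 0.370).

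None of the 5 synthesis genes passed the threshold for medium. Pcna, the sliding clamp of the replicative polymerases, had medians of 8.38, 8.63, 8.65 and 8.72 in control standard, control limited, undernourished standard and undernourished limited cells. Its lowest array was 7.97 and its highest 8.99, in overlapping groups, with a difference of 0.18 ± 0.10 (adjusted p = 0.332). The ribonucleotide reductase subunits Rrm1 and Rrm2, which make deoxyribonucleotides, had differences of -0.12 ± 0.13 and -0.26 ± 0.19, and thymidylate synthase (Tyms) had -0.11 ± 0.09.

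The mitotic genes had lower values in limited medium, and none passed the threshold in the fit without a block. Cyclin A2 (Ccna2), which acts in S phase and at mitotic entry, had a difference of -0.73 ± 0.26 (adjusted p = 0.0989), and topoisomerase Top2a, which untangles chromosomes, had -0.49 ± 0.23 (adjusted p = 0.215). Both were lower in at least 11 of 12 cultures, as were 3.90% of all genes. With the culture number as a block both passed (limma, adjusted p = 0.0464 and 0.0493), where 11.7% of all genes did. Mki67, the proliferation marker that coats mitotic chromosomes, had -0.49 ± 0.24 (adjusted p = 0.257), and the kinetochore motor Cenpe had -0.48 ± 0.19 (adjusted p = 0.128). The spindle checkpoint kinase Bub1 had -0.41 ± 0.22 (adjusted p = 0.301), and cyclin B2 (Ccnb2) had -0.40 ± 0.23 (adjusted p = 0.334). Most of these values shrank without the standard-medium array of undernourished culture 4. They became -0.51 ± 0.19 for Ccna2, -0.32 ± 0.17 for Top2a, -0.29 ± 0.17 for Mki67, -0.32 ± 0.12 for Cenpe, -0.20 ± 0.12 for Bub1 and -0.20 ± 0.14 for Ccnb2. The checkpoint activator Cdc20 and the centromere histone Cenpa went from -0.10 and -0.06 to 0.01 and 0.02. Several mitotic genes had low signals. By mean signal over all arrays, Bub1 lay above 15.9% of all genes, Top2a above 30.5%, Cenpe above 32.4% and Ccna2 above 44.0%. Mki67 lay above 52.3% and Ccnb2 above 63.4%. Detection was not called for any of them.

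Counted over all 35 genes, 30 had a value below 0 over both diets, with a median of -0.13, where all genes had a median of 0.01. Of all genes, 51.8% were above 0. At an unadjusted p under 0.05 there were 2 higher (Cdt1 and Mcm7) and 6 lower genes (Cdk6, Ccnd1, Ccna2, Top2a, Cenpe and Mcm4), where 20.3% of all genes reached that level, 10.8% as higher and 9.48% as lower. Within diets the values differed in size. In control cells 22 genes were below 0 with a median of -0.05, and in undernourished cells 30 genes with a median of -0.27. Of all genes, 51.7% were above 0 in control and 51.1% in undernourished cells. In undernourished cells 10 genes were lower and 1 higher at an unadjusted p under 0.05, where 6.69% and 6.71% of all genes were, 13.4% in all. These values in undernourished cells rest in large part on 1 array. Without the standard-medium array of undernourished culture 4, the median in undernourished cells was -0.10 with 22 genes below 0. There 3 genes reached an unadjusted p under 0.05, Cdk6 as lower and Cdt1 and Mcm7 as higher. The share of all genes at that level without the array is not given here. Over both diets the median without it was -0.07 with 25 genes below 0. Cdk6 without that array was -0.66 in undernourished cells (adjusted p = 0.0498).

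**Figure D2:**
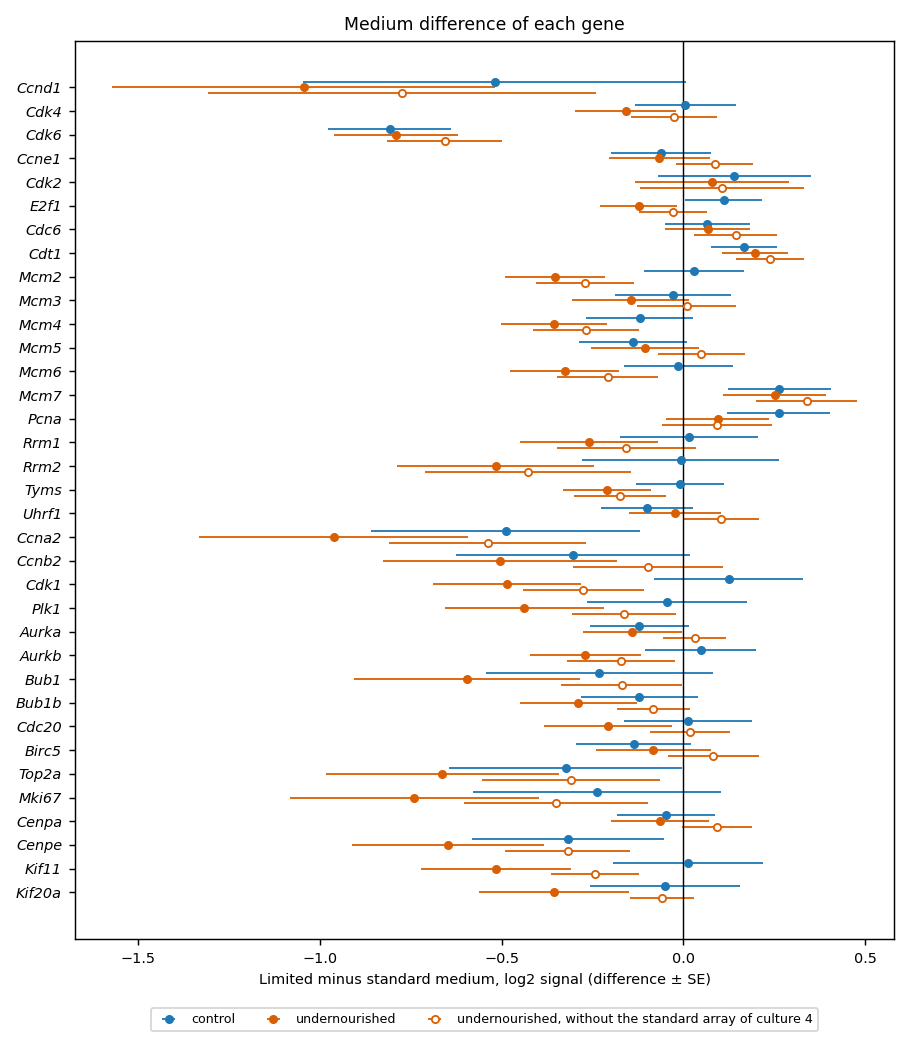
Limited minus standard medium in log2 signal (horizontal axis, difference ± SE from limma) for each of the 35 genes in control cells, in undernourished cells and in undernourished cells without the standard-medium array of culture 4. Cdk6 lies near -0.8 in both diets, and the median of the 35 genes in undernourished cells goes from -0.27 to -0.10 when that array is left out.

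The array that carries much of these differences is the standard-medium array of undernourished culture 4. It held the highest value of all 24 arrays for 25 of the 35 genes (71.4%), against 5.19% of all genes. All 16 measured genes of mitotic entry, checkpoint and chromosome structure were highest there, as were 4 of 6 G1 genes, 3 of 8 licensing genes and 2 of 5 synthesis genes. Ccna2 had 8.46 on this array, and the other 5 undernourished standard arrays had 5.12 to 7.27. Mki67 had 8.58 against 5.55 to 7.27, with culture 20 next highest for both genes. The array of culture 20 itself held the highest value for 4 of the 35 (11.4%), against 7.70% of all genes: Ccnd1, Mcm4, Mcm6 and Tyms. At least 1 log2 unit above the mean of the other 5 arrays were 14 of the 35 genes (40.0%), against 0.879% of all genes.

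The excess over the mean of the other 5 arrays was 2.55 for Bub1, 2.55 for Ccna2, 2.44 for Ccnb2, 2.34 for Mki67, 2.12 for Top2a and 1.97 for Cenpe. Kif20a and Kif11, kinesins of cytokinesis and of the spindle, had 1.78 and 1.63, and the mitotic kinase Plk1 had 1.64. G1 and synthesis genes were mixed: Ccnd1 had an excess of 1.62, Cdk2 of 0.16, Tyms of 0.21 and Pcna of -0.02. The limited-medium array of the same culture did not share the excess. Its difference from the standard array was -3.64 for Ccna2, -2.69 for Bub1, -2.54 for Mki67 and -2.40 for Top2a.

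**Figure D3:**
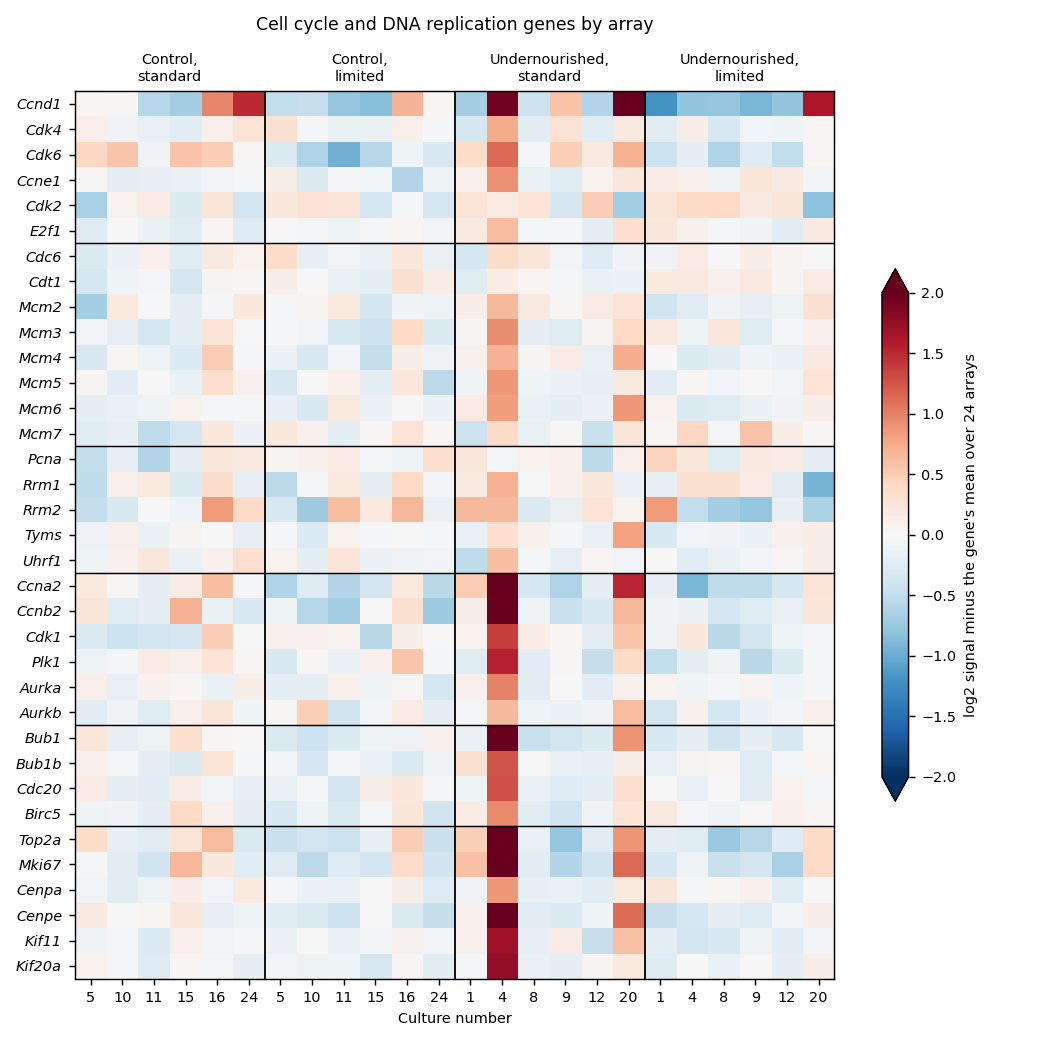
Log2 signal minus the gene's mean over all arrays (colour, limited to 2 units on either side) for the 35 genes in rows, ordered by role, and the 24 arrays in columns, labelled by culture number within the 4 groups. The standard-medium array of undernourished culture 4 holds the highest value for 25 of the 35 genes.

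Genes outside the list were read in the same array. Of 63 other mitosis genes, 56 (88.9%) had their highest value there, of 52 other replication genes 19 (36.5%), of 15 other cyclins and CDK regulators 6 (40.0%), and of 7 CDK inhibitors 1. Of 10 satellite cell and myoblast markers, 9 lay above the mean of the other 5 arrays, with a median excess of 0.49, and their mean of 9.52 was the highest of its group. The 15 myotube markers had a median excess of -0.05, the 9 fibroblast markers -0.08 and the 5 glial markers -0.65. The last 2 values turn on culture 20, whose array is high in both lists: against the other 4 arrays without it they were 0.23 and 0.01, while the myoblast markers had 0.47 and the 35 genes 0.98. The part of a myoblast share in the mitotic signal of this array was not tested.

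**Figure D4:**
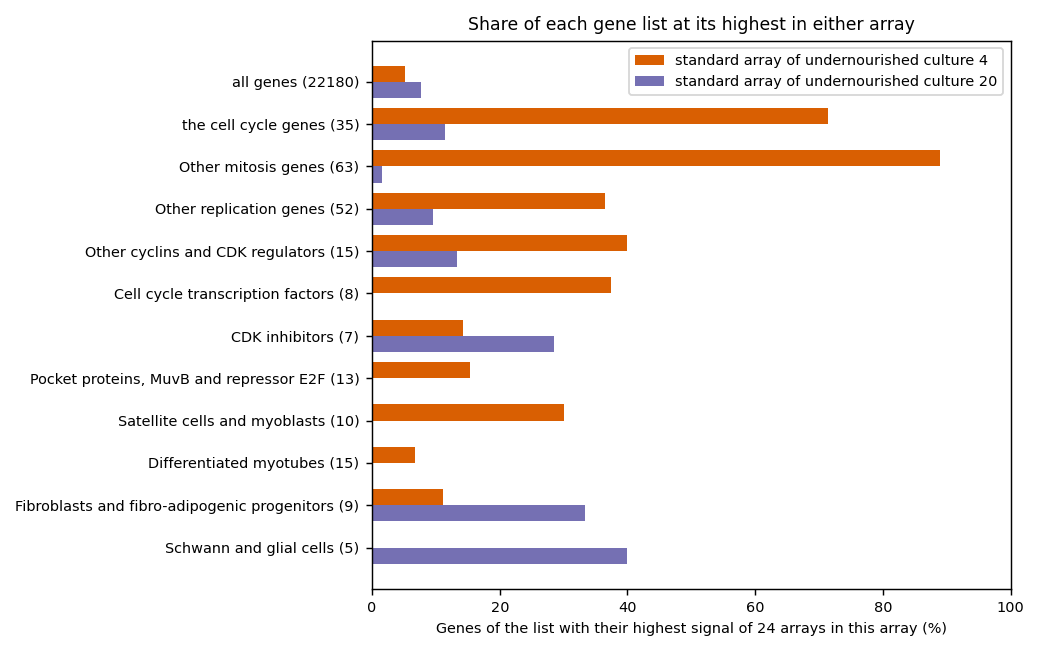
Share of each gene list (horizontal axis, percent; number of genes in parentheses) with its highest value of 24 arrays in the standard-medium array of undernourished culture 4 or of culture 20. The array of culture 4 holds the highest value for 71.4% of the 35 cell cycle genes and 88.9% of the other mitosis genes, against 5.19% of all genes.

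Culture by culture, the median change of the 35 genes from standard to limited medium was -1.02 in culture 4 and -0.35 in culture 20. Lower were 31 of the 35 in culture 4 (48.7% of all genes) and 30 in culture 20 (48.1%). In the other 10 cultures the median lay between -0.14 and 0.06. Across the 24 arrays, the deviations of the 35 genes from their group means had a median pairwise Pearson r of 0.52, which is a description of arrays that share cultures. It was 0.85 among chromosome structure genes and motors, 0.79 among checkpoint genes, 0.70 among mitotic entry genes, 0.49 among licensing genes, 0.46 among G1 genes and 0.12 among synthesis genes. Without the standard array of culture 4 these became 0.64, 0.50, 0.48, 0.36, 0.10 and 0.07, and that of all 35 genes became 0.32.

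Promoter sequences of genes that varied together are shown because mitotic and replication genes are known for different promoter elements: the CHR, often beside CCAAT boxes, in mitotic genes, and E2F sites in genes of G1 and S phase. RefSeq windows from 250 bases before to 50 bases after the start (assembly GRCm38.p6) were matched for 30 of the 35 genes, 32 windows in all. Each line below holds the 120 bases before the start, 5′ to 3′ on the gene's strand. Capitals mark matches on either strand to a CHR, which is TTTGAA with TTCGAA as its variant, to a CCAAT box, or to an E2F site, for which TTTCCCGC, TTTCGCGC, TTTGCCGC and TTTGGCGC were searched. Adjacent or overlapping matches form 1 run of capitals. The first 4 genes are mitotic and the last 2 are helicase subunits. All capitals of Ccnb2, Plk1 and Mcm3 are CCAAT boxes. The CHR matches of Ccnb2 and Plk1 and the E2F matches of Mcm3 lie in the window but outside the bases shown.
Cdk1 (chr10:69352913-69353032, minus strand): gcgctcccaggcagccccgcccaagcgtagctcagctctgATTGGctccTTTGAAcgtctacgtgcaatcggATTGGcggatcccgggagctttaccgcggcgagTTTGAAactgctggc
Ccnb2 (chr9:70421555-70421674, minus strand): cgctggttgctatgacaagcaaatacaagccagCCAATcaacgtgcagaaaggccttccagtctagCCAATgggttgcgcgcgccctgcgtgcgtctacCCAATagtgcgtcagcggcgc
Plk1 (chr7:122159315-122159434, plus strand): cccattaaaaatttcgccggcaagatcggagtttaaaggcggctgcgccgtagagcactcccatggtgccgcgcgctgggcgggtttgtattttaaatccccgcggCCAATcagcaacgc
Kif11 (chr19:37376262-37376381, plus strand): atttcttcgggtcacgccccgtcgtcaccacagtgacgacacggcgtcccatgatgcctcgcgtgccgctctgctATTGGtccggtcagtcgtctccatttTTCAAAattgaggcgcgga
Mcm6 (chr1:128359706-128359825, minus strand): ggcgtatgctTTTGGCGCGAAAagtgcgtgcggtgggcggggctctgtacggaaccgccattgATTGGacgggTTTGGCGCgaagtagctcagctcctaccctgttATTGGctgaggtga
Mcm3 (chr1:20820313-20820432, minus strand): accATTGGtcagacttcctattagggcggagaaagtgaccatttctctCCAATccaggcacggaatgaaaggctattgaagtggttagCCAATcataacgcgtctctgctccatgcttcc

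Within the whole windows, a CHR match was present in 13 of 32 windows (40.6%) and in 17.0% of the 20611 windows of all genes tested. A CCAAT box was present in 24 windows (75.0%) against 37.7%, and an E2F match in 9 windows (28.1%) against 2.85%. By role, a CHR match was found in 4 of 4 mitotic entry genes, 3 of 4 checkpoint genes and 4 of 5 chromosome structure genes and motors with a window, in 2 of 7 licensing genes and in 0 of 5 G1 genes. It was found in 0 of 5 synthesis genes. E2F matches lay in 6 of 7 licensing genes, but in 1 of 5 G1 genes, 1 of 5 synthesis genes, 1 of 4 mitotic entry genes, 0 of 4 checkpoint genes and 0 of 5 chromosome structure genes and motors. These are letter matches only, and binding was not measured.

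Maternal diet had no called effect on any of the 35 genes. In standard medium 0 of 35 were called, in limited medium 0, over both media 0 and for the difference of the medium effect between diets 0, where limma called 0% of all genes in each. At an unadjusted p under 0.05, 4 of the 35 were higher in undernourished cells in standard medium, where 3.14% of all genes reached that level, 1.78% as higher: Cdk1, the mitotic kinase, by 0.49 ± 0.20, Mcm2 by 0.32 ± 0.14, Mcm6 by 0.31 ± 0.15 and E2f1 by 0.29 ± 0.11. None of the 35 reached it in limited medium (5.44% of all genes). Over both media Ccne1 alone did, with 0.25 (3.57% of all genes), and for the difference of the medium effect Cdk1 alone did, with -0.61 ± 0.29 (2.90% of all genes).

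In standard medium 34 of the 35 genes had a higher mean in undernourished than in control cells, as did 53.2% of all genes. The median difference of the 35 was 0.22, where all genes had 0.01. The exception was Uhrf1, which recruits the maintenance DNA methyltransferase after replication, with -0.10 ± 0.13. This count rests in large part on the array of culture 4. Without it, 23 genes were above 0 and 12 below with a median of 0.06. The 2 genes then at an unadjusted p under 0.05 were E2f1, with 0.20, and Uhrf1, in the other direction with -0.23. The shares of all genes without the array, by direction or at that level, are not given here. In limited medium the median was 0.00, with 19 genes above 0 and 16 below, where 50.9% of all genes were above 0. The comparison of diets in standard medium, that of media in undernourished cells and the difference of the medium effect share the 6 undernourished standard arrays. The median difference of the medium effect was -0.22 with that array and -0.01 without it.

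Cultures of the same diet differed in 4 of the 35 genes (11.4%), where 6.42% of all genes were called by limma's moderated F-test on 12 cultures with 2 arrays each. These were Ccnd1 (SD between cultures 0.94, adjusted p = 0.00217), Rrm2 (0.47, adjusted p = 0.0170), Cdk2 (0.36, adjusted p = 0.0237) and Rrm1 (0.33, adjusted p = 0.0165). Over all 35 genes the median SD between cultures was 0.23, and over all genes 0.14.

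Ccnd1 was highest in culture 20, with 10.00 in standard and 9.01 in limited medium. Among control cells it was high in culture 24 (8.88 and 7.43) and culture 16 (8.37 and 8.08), while the other 4 control cultures lay between 6.55 and 7.43. In culture 4 it was 9.32 in standard medium and 6.61 in limited medium. Cdk2 ran the other way in culture 20, with 8.93 and 8.80, the lowest values of the undernourished groups. Rrm1 was likewise lowest of the undernourished groups in culture 20 (8.76 and 7.99), and in control cells it ran from 8.41 and 8.39 in culture 5 to 9.27 and 9.31 in culture 16. Rrm2 was high in culture 16 (7.99 and 7.81) and in culture 1 (7.78 and 7.99). The array's second cluster for Rrm2, with lower signal, had an SD of 0.17 and was not called (adjusted p = 0.406).

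Of the cultures named above, cultures 20, 16 and 24 also stood out in markers of other cell types. The rest did not stand out in Col1a1 or Cdh19, among them culture 4, which had 9.32 for Ccnd1 in standard medium. Col1a1, a collagen of fibroblasts, had 11.76 and 11.29 in culture 20, 10.42 and 10.93 in culture 16 and 9.08 and 8.92 in culture 24, and 6.90 to 8.84 elsewhere. Cdh19, a cadherin of Schwann cells, had 10.39 and 9.42 in culture 20, 6.29 and 6.13 in culture 16 and 5.83 and 6.15 in culture 24, and at most 3.94 in the other 9 cultures. Over the 5 measured glial markers the mean per array ran from 5.18 to 8.04 in undernourished standard and from 5.31 to 6.25 in control standard arrays. Over the 9 fibroblast markers it ran from 5.65 to 7.23 and from 5.77 to 7.12. The moderated F-test called 5 of 9 fibroblast, 4 of 5 glial and 3 of 7 smooth muscle and pericyte markers. It also called 3 of 15 myotube and 1 of 10 myoblast markers, against 6.42% of all genes. None of the endothelial, leukocyte, adipocyte or tenocyte markers were called. The part of other cell types in the Ccnd1 and Cdk2 differences was not tested. Without culture 20, Ccnd1 (adjusted p = 0.0911) and Cdk2 (adjusted p = 0.336) were no longer called. Without cultures 16 and 20 together, 0 of the 35 genes were called. Rrm1 was lost without culture 5 (adjusted p = 0.0504) and Rrm2 without culture 16 (adjusted p = 0.0593). Without culture 4 there were 8 called genes, the added ones being Ccna2, Ccnb2, Mki67 and Top2a. Calls among all genes moved as well, from 510 to 2250 over all alternatives, against 1424 in the main fit. The share of all genes in each of these fits is not given here. These changes in count thus cannot be read as particular to the 35 genes.

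**Figure D5:**
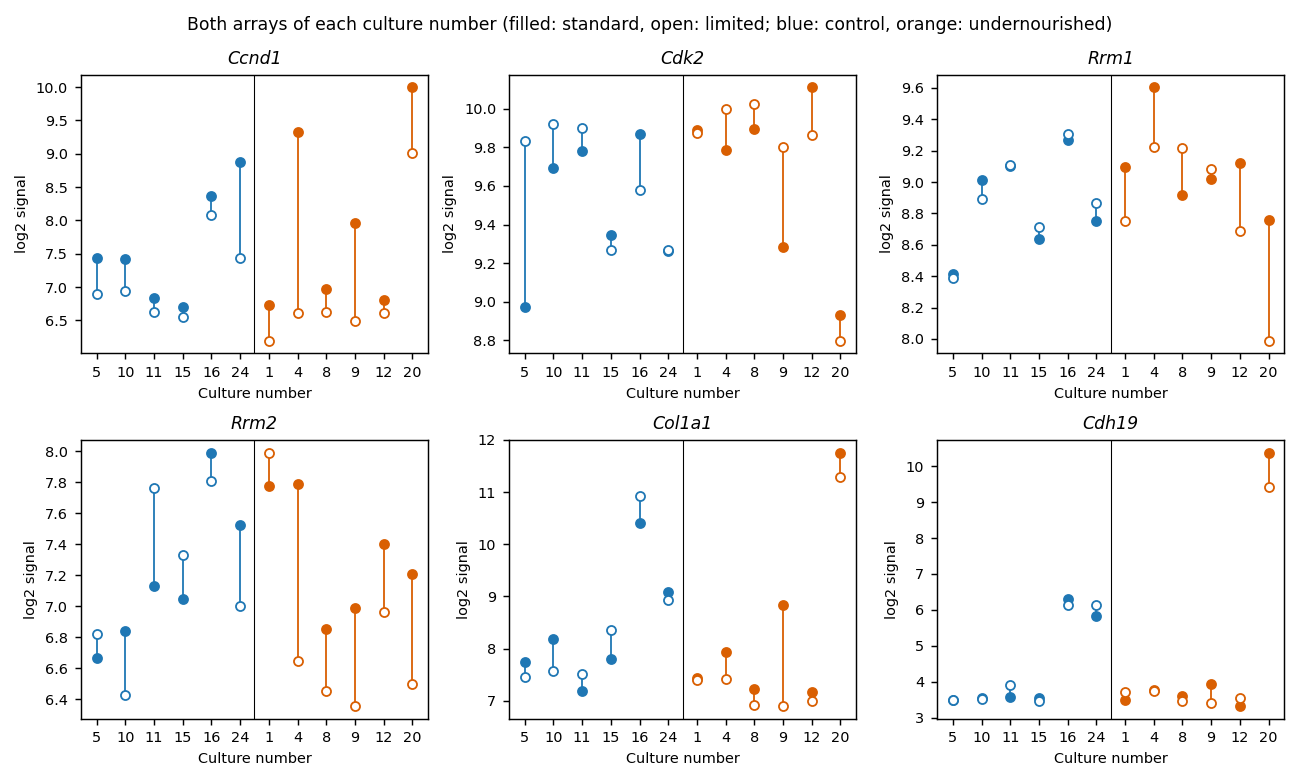
Log2 signal (vertical axis) in each of the 12 cultures (horizontal axis) for Ccnd1, Cdk2, Rrm1, Rrm2 and the markers Col1a1 and Cdh19; filled points are standard and open points limited medium. Ccnd1, Col1a1 and Cdh19 are high and Cdk2 is low in culture 20.

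Regulators of the cycle outside the list were read for medium over both diets, where 6.84% of all genes were called, so that 1 gene of 15 or 4 of 52 is near that share. Of 7 CDK inhibitors, 1 rose and none fell: Cdkn2d, the p19 inhibitor of Cdk4 and Cdk6, rose by 0.42 ± 0.12 (adjusted p = 0.0252) and was higher in 11 of 12 cultures. Of 15 other cyclins and CDK regulators, none rose and 1 fell. This was Skp2, the ubiquitin ligase subunit that marks the CDK inhibitor p27 for degradation, which fell by 0.48 ± 0.08 (adjusted p = 0.000736) and was lower in 11 of 12 cultures. Of 8 cell cycle transcription factors and of 13 pocket proteins, MuvB subunits and repressor E2F genes, none passed.

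Of 52 other replication genes, 2 rose and 2 fell. Orc5, a subunit of the origin recognition complex, fell by 0.47 ± 0.06 (adjusted p = 2.95e-05) and was lower in 12 of 12 cultures. It also passed in control (-0.45 ± 0.08, adjusted p = 0.0123) and in undernourished cells (-0.48 ± 0.08, adjusted p = 0.00342). Orc3, of the same complex, fell by 0.16 ± 0.05 (adjusted p = 0.0474). Gins3, of the complex that activates the helicase, rose by 0.46 ± 0.11 (adjusted p = 0.0124), and Rpa2, a single-strand DNA binding subunit, by 0.40 ± 0.10 (adjusted p = 0.0162). Of 63 other mitosis genes, none rose and 1 fell, Lmnb1 (lamin B1, of the nuclear lamina), by 0.34 ± 0.09 (adjusted p = 0.0261). Beside these, 2 of 15 myotube markers rose with the limited medium, Ckm by 0.47 ± 0.12 (adjusted p = 0.0170) and Tnni2 by 0.49 ± 0.11 (adjusted p = 0.00963). Of the 15, 12 were above 0 and 3 below. The largest difference among them was a higher value of Myh4, by 1.03, which did not pass. Of 10 satellite cell and myoblast markers 1 fell, Vcam1 by 0.45 ± 0.10 (adjusted p = 0.00854). That list was mixed, with 4 markers above 0 and 6 below. Its largest difference was a higher value of Myf5, by 0.48, which did not pass. The part of these markers in the differences of the cell cycle genes was not tested.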

How the data were processed

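Each of 24 samples, in 4 groups of 6 taken from the labels, was hybridised to its own single-colour array. Trizol-extracted RNA was biotin-labelled (WT PLUS), per the labels' protocols. Per the submitters' processing notes, the authors made the deposited log2 values with RMA in Affymetrix Expression Console. The sources used here give neither tool versions nor the build used to define clusters, and do not state that every array was normalized in a joint run. The base of the logarithm is not stated; values from 1.69 to 14.1 with array medians from 5.60 to 5.81 were read as log2. RMA forces array distributions to be alike and compresses low signals. Precision is limited by how many arrays there are, and detection was not called.

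Of 41345 clusters, 23521 carried exactly 1 symbol, 1814 several and 16010 are not named here. Symbols come from the platform annotation, updated by Entrez identifier through RefSeq (GRCm38.p6; 23328 matched). The cluster with the highest mean was used for the 1082 genes with more than 1, with no filter on dim genes. limma 3.58.1 in R 4.3.3 (lmFit, eBayes) fitted all 24 arrays in 4 groups without a block. For diet over both media, both arrays of a culture were averaged first. Differences between cultures were tested by a moderated F-test over 10 contrasts, with medium within diet as a covariate. Two-sided p-values were adjusted over 22180 genes (Benjamini-Hochberg), with a threshold of 0.05; unadjusted counts use the same level. The scripts were tested on simulated data. Errors of differences are SE and errors of levels SD. No arrays were identical.

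The genes and lists were chosen with earlier results of these data known. All measured genes of the list enter the counts. Values by sample are given for called genes and for Mki67, Top2a, Ccnd1, Cdk4, Mcm2 and Pcna, with up to 4 called genes of each other list. Alternatives were other normalization, filters, array weights, eBayes settings, cluster choice, thresholds, the replicate number as a block and leaving out cultures.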

Additional observations from a re-analysis of the deposited data

Results flagged for a closer look

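Of 140 tests of an array lying far from the other 5 of its group, for 35 genes in 4 groups, 13 passed Dixon's 95% limit. Chance alone flags about 1 in 20 groups. No explanation was weighed.

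The standard-medium array of undernourished culture 4 gave 5 of them, all as the highest of its group: Kif20a at 7.78 (next 6.22), Cdc20 at 6.98 (next 6.01), Aurka at 6.77 (next 5.87), Bub1b at 6.61 (next 5.66) and Mcm5 at 6.41 (next 5.72). In the same group, Pcna was lowest in culture 12 at 8.04, where the next array had 8.54.

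In undernourished limited arrays, culture 20 had the highest Ccnd1, 9.01 (next 6.62), and the lowest Cdk2, 8.80 (next 9.80). In that group culture 1 had the highest Rrm2, 7.99 (next 6.96). In control limited arrays, culture 16 was highest for Top2a, 5.61 (next 4.96), and for Mki67, 6.51 (next 5.89). There culture 15 was lowest for Cdk1, 5.61 (next 6.17), and culture 10 was lowest for Tyms, 6.59 (next 6.82).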

How the results depend on the processing

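The fall of Cdk6 over both diets passed under all 21 alternatives run for it, from -0.85 to -0.73 with adjusted p from 3.38e-05 to 0.00178. The count of called genes of the 35 for medium over both diets went from 1 to 2 with array weights (Cdk6 and Mcm7) and to 3 at an adjusted p under 0.1 (Ccna2, Cdk6 and Cdt1). Leaving out a culture gave 0 to 1 in control and 0 to 1 in undernourished cells, and 2 to 8 for differences between cultures. The last count was 0 without cultures 16 and 20. For diet in each medium, diet over both media and the interaction it was 0 under every alternative run. Counts over all genes ranged from 267 to 2597 for medium over both diets, from 10 to 551 in control, from 51 to 1007 in undernourished cells and from 510 to 2250 for cultures, against 1517, 76, 324 and 1424. The share of all genes under each of the alternatives in this paragraph is not given here. The changes in the count of the 35 genes thus cannot be read as particular to them. Leaving out the standard array of culture 4 was chosen after the values were seen. A title number could not be fitted beside the culture numbers. The causes of these changes were not tested.

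With the replicate number as a block, 5 genes passed for medium over both diets (Ccna2, Ccnd1, Cdk6, Mcm7 and Top2a; 11.7% of all genes), 1 in control (2.48% of all genes) and 2 in undernourished cells (Ccnd1 and Cdk6; 4.54%). Over both diets the adjusted p was 0.00686 for Ccnd1, 0.0258 for Mcm7, 0.0464 for Ccna2 and 0.0493 for Top2a. Arrays of the same number had deviations that correlated from -0.05 to 0.56, and 10 of 12 numbers had their own partner as the best match, a hint from the data that arrays of a number belong together. Cultures 9 (-0.05) and 12 (0.02) did not, and the labels do not say what the number marks, so the fit without the block was kept.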

Other observations

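Beyond the genes described above, the cultures of a diet differed in further cell cycle genes by the moderated F-test, which called 6.42% of all genes, a share that the counts of replication and mitosis genes did not exceed: Cdkn2a of 7 CDK inhibitors (SD between cultures 0.43, adjusted p = 0.000701), E2f2 and E2f8 of 8 transcription factors (0.35 and 0.49, adjusted p = 0.0189 for both), Ccnd2 and Wee1 of 15 other cyclins and CDK regulators (0.63, adjusted p = 0.00150, and 0.42, adjusted p = 0.0148), and Ndc80 of 63 other mitosis genes (0.44, adjusted p = 0.0496). Cdkn2a encodes inhibitors of Cdk4, Cdk6 and Mdm2, and Ccnd2 encodes another D cyclin. Of 52 other replication genes, Prim2 (0.33, adjusted p = 0.00543), Hells (0.41, adjusted p = 0.0210) and Rfc2 (0.25, adjusted p = 0.0381) were called. In undernourished cells alone, the polymerase subunit Pole2 fell by 0.51 ± 0.13 with limited medium (adjusted p = 0.0490).

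Among all genes outside the 35, those whose deviations from group means over 24 arrays were most like the mean deviation of all 35 were Tpx2 (Pearson r 0.95), Ube2c (0.93), Shcbp1 (0.93), Smc2 (0.92) and Hmmr (0.92); this list was added after the values were seen. Most like the mean of the 4 genes that differed between cultures were Pitrm1 (0.86), Cndp2 (0.82), Olfr177 (0.81), Pcolce (0.79) and Cxcl12 (0.79). All these r values include the standard-medium array of undernourished culture 4 and were not computed without it. Arrays of a culture are not independent, and these values are descriptions.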
